A study of Mus musculus with 10 samples.

Results

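Ccl2, Ccl12, Ccl3, Ccl4, Ccl6, Ccl24 and Cxcl10 were the 7 chemokine ligand genes that exceeded the negative-probe limit in hippocampal microglia, out of 545 endogenous genes on an nCounter mouse immune panel. They were selected on their raw counts in these same lanes, as the chemokine ligands above the limit in at least 4 of 10 lanes, so their detection is a description and not a result; 283 of the 545 genes met that filter. BDS pups underwent brief daily separation, a daily 15 min away from the mother, scheduled over postnatal days 1 to 21 and thus still under way at collection. Control (CTL) pups are labelled only as control. All were male Balbc mice of postnatal day 14, each out of a different litter, with 5 pups per group: BDS 11, 17, 24, 38 and 59, and CTL 1, 18, 40, 52 and 69. Microglia, the resident macrophages of the brain, were isolated on a Percoll gradient and by FACS, with a gate that the labels do not describe, and 2 ng of RNA per pup was converted to cDNA, amplified by 5 rounds of PCR and read in 1 lane as barcode counts.

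Chemokines are small secreted proteins that direct the migration of leukocytes through G-protein-coupled receptors. The CC class has its first pair of cysteines side by side, and the CXC class has 1 residue between them. Macrophages and microglia make several of them in small amounts at rest and in large amounts after activation through toll-like receptors, NF-kB and interferons.

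Endogenous counts per lane ran from 341679 to 968930 in BDS pups and from 76237 to 802033 in CTL pups, and housekeeping signal was higher in BDS lanes by 1.23 on the log2 scale. Values below are normalized counts, that is raw counts divided by a lane factor (centred on 1) set by housekeeping genes (geometric mean over Alas1, Gapdh, Oaz1, Polr1b, Sdha and Tbp). A lane's limit was the mean plus 2 SD of its 8 negative probes, between 16.7 and 26.3 raw counts in BDS lanes and between 13.9 and 26.0 in CTL lanes. All 11 microglia markers were above the limit in at least 4 lanes, with a summed level of 148097 to 181051 in BDS lanes and 140595 to 195935 in CTL lanes. Of other cells' markers on the panel, 0 of 3 border macrophage, 1 of 4 monocyte, 1 of 5 neutrophil, 1 of 10 T cell, 1 of 5 B cell, 2 of 5 NK cell and 3 of 4 endothelial genes did so. Cd163, Msr1, Cd3d and Cd3e exceeded the limit in no lane. The border macrophage list had 5 genes, of which Mrc1 and Lyve1 were not on the panel, so absence of these cells cannot be read from the rest. The summed border macrophage level was 16.8 to 29.0 in BDS lanes and 17.9 to 127 in CTL lanes. In CTL 52 raw Cd36, Cd163 and Msr1, the border macrophage genes, were 9, 12 and 4, all below that lane's limit of 24.4. The summed endothelial level was 986 to 1074 in BDS lanes and 724 to 1682 in CTL lanes. Summed monocyte markers were at 113 to 164 in BDS lanes and 76.2 to 124 in CTL lanes, and neutrophil markers at 1067 to 1744 in BDS lanes and 1525 to 3453 in CTL lanes. T cell markers were at 960 to 1806 in BDS lanes and 796 to 2208 in CTL lanes, and B cell markers at 169 to 259 in BDS lanes and 165 to 299 in CTL lanes. NK cell markers were at 88.3 to 126.8 in BDS lanes and 95.1 to 122.4 in CTL lanes. The most abundant monocyte marker was Ccr2 (mean 113 in BDS pups, 75.1 in CTL pups), and the most abundant neutrophil marker was Csf3r (1288 and 2202). For T cells it was Il7r (1285 and 1288) and for B cells Cd79b (192 and 214). Each of these was the only gene of its list that met the filter. The part of these other cells in the chemokine values was not tested. In sorted cells measured in bulk, fewer cells that make a chemokine and less RNA per cell cannot be told apart.

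The panel held 26 chemokine ligand genes, of which 19 did not meet the filter. Of these, 11 never exceeded the limit, 6 did so in 1 lane, and 2, Ccl7 and Ccl25, did so in 3 lanes each. Of the members, Ccl3, Ccl4 and Ccl12 exceeded it in all 10 lanes, Ccl2 and Ccl6 in 9, Cxcl10 in 8 and Ccl24 in 6. Ccl24 was thus the member nearest the limit, with raw counts of 10 to 55 over the 10 lanes, while Ccl25 just outside ran from 3 to 48 and Ccl7 from 2 to 52. The authors' deposited table lists Ccl25 above background in 60% of samples and Ccl7 in 40%, and Ccl24 and Cxcl10 in 100%, all higher shares than with the limit used here, so detection near the limit depended on how it was set.

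The members covered a wide range of levels. Probes differ in efficiency, so counts of different genes are only a rough guide to their order. Ccl12 and Ccl3 ranked 85th and 94th of the 283 tested genes by mean normalized count. Ccl4 ranked 192nd, Ccl2, Ccl6, Cxcl10 and Ccl24 between 227th and 259th. Together the 7 genes took 0.359% ± 0.123 of endogenous counts in BDS lanes and 0.511% ± 0.171 in CTL lanes (SD, n = 5 each). That share ranged from 0.205% in BDS 11 to 0.472% in BDS 17, and from 0.275% in CTL 1 to 0.729% in CTL 52, so the groups overlapped.

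**Figure D1:**
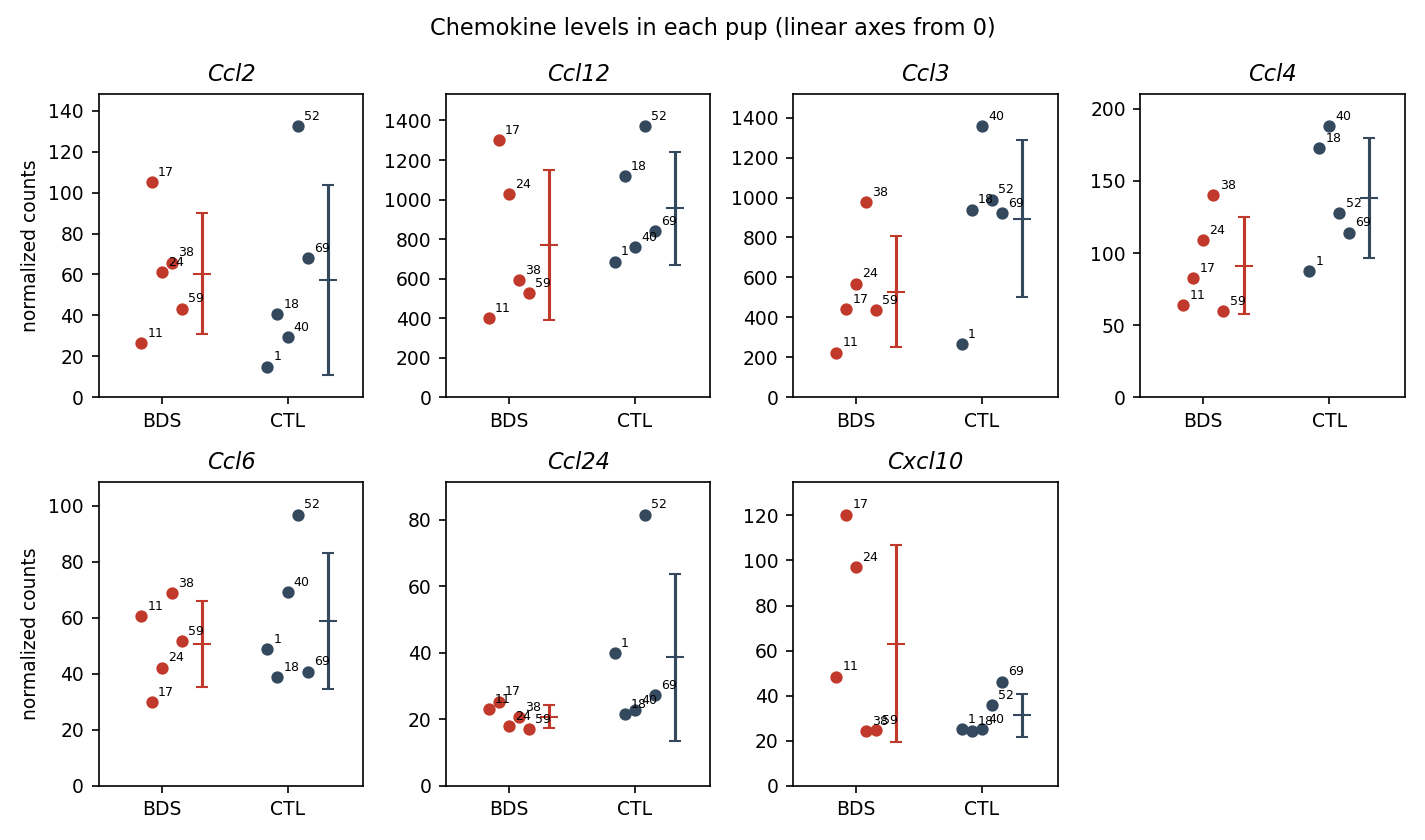
Normalized counts of the 7 chemokines (vertical axes, linear and starting at 0, with a scale of their own per gene) in each BDS pup (red) and each CTL pup (dark blue), labelled by pup number, with the mean and SD of each group (n = 5) beside the points. The groups overlap in all 7 genes, and in Cxcl10 the BDS pups 17 (120.4), 24 (97.1) and 11 (48.4) are above the CTL maximum of 46.2.

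The comparison asked which chemokines of hippocampal microglia differed between BDS and CTL pups. Ccl3, Ccl4, Ccl24, Ccl12 and Ccl6 had lower means in BDS pups, and Cxcl10 and Ccl2 higher ones. None of the 7 passed edgeR's quasi-likelihood test at an adjusted p of 0.05 over the 283 genes tested, and neither did any other gene (0%). DESeq2 called 25 genes and no member, and edgeR called 48 genes without CTL 40 and 19 without BDS 11, again with no member. At an unadjusted p under 0.05 Cxcl10 alone passed, 1 of 7, against 28.3% of all tested genes. Under TMM and median-of-ratios factors 4 of 7 passed (Ccl3, Ccl4, Ccl24 and Cxcl10), against 75 and 73 of the 283 genes, so the members' share lay below or above the background depending on the scaling. Groups overlapped in all 7 members, where 4.59% of tested genes had groups that did not (3.53% with all BDS pups higher, 1.06% with all lower). The median log2 fold change was -0.30 over the 7 members and -0.46 over the 6 CC members, beside 0.09 over all tested genes, of which 55.8% were above 0 and 44.2% below, against 2 and 5 of the 7 members. 5 of the 7 members were among the most variable 25% of tested genes by the SD within groups on the log2 scale. Ccl2 ranked 7th (0.97) and Ccl3 15th (0.84), while the median of all tested genes was 0.41. Members were not compared with genes of like level. The SD in BDS and CTL pups was 0.72 and 1.16 for Ccl2, 0.23 and 0.77 for Ccl24, and 0.77 and 0.91 for Ccl3. It was 0.70 and 0.41 for Ccl12, and 1.05 and 0.40 for Cxcl10. Raw counts in CTL lanes ran from 12 to 54 for Ccl2 and from 10 to 42 for Ccl24. The part of low counts in these SDs was not tested.

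**Figure D2:**
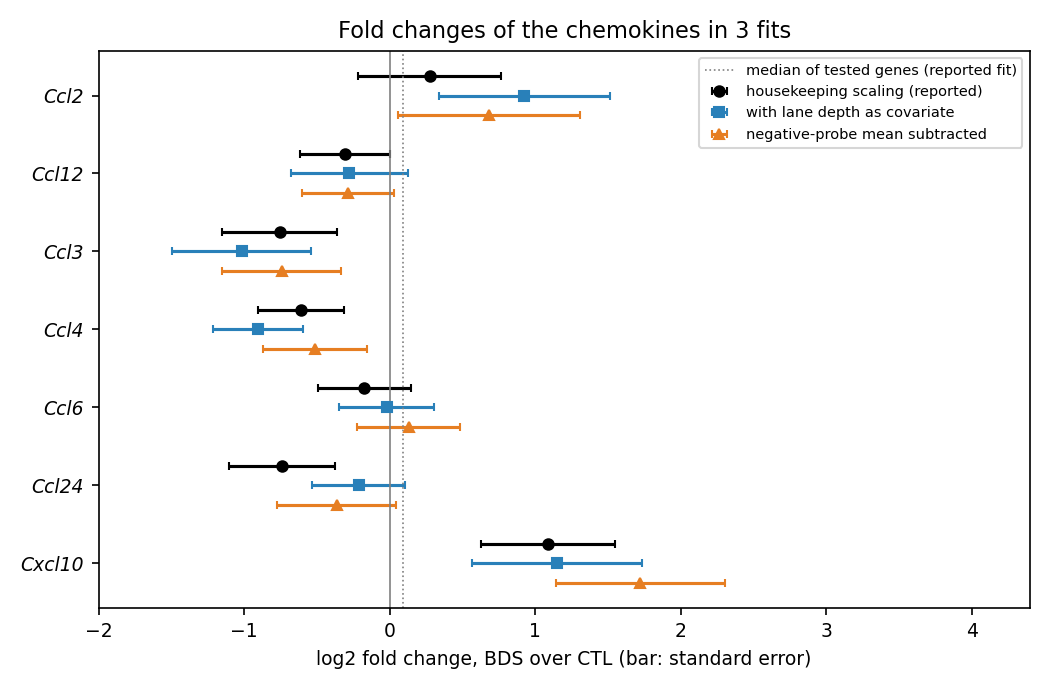
Log2 fold change of each chemokine, BDS over CTL (horizontal axis; bars are standard errors, n = 5 pups per group), from the reported fit (black circles), with lane depth as a covariate (blue squares) and after subtraction of the negative-probe mean (orange triangles). Ccl3 and Ccl4 lie below 0 and Cxcl10 above 0 in all 3 fits shown, while Ccl24 moves from -0.74 to -0.21 with lane depth held.

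Ccl2 and Ccl12 are ligands of CCR2, the receptor that draws inflammatory monocytes into tissue. In RefSeq's gene order both lie in one cluster on chromosome 11, separated by Ccl7 and Ccl11. Ccl2 (MCP-1) had 26.6, 105.2, 61.3, 65.8 and 43.3 normalized counts in BDS 11, 17, 24, 38 and 59, against 15.0, 40.5, 29.4, 132.6 and 67.9 in CTL 1, 18, 40, 52 and 69. The CTL pups spread more widely than the BDS pups, and CTL 52 was the highest and CTL 1 the lowest of all 10. The log2 fold change was 0.28 ± 0.49 (SE; edgeR adjusted p = 0.733), and it was 0.77 without CTL 52 and -0.02 without BDS 17. It was 0.93 ± 0.59 with lane depth in the fit, 0.69 ± 0.62 with the negative-probe mean subtracted, and 1.09 without CTL 52 and 69 together (edgeR unadjusted p = 0.0238, adjusted p = 0.121). Raw Ccl2 in CTL 52 was 26 counts, close to the lane's limit of 24.4. The authors' deposited table lists Ccl2 means of 79 in BDS pups and 90 in CTL pups, a fold of 0.89. That direction is opposite to the means here, so the sign of the Ccl2 difference was not settled.

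Ccl12 (MCP-5), a mouse relative of Ccl2, had the highest mean normalized count of the 7 in both groups. Its 300 bases around the annotated start (250 before, 50 after; GRCm38.p6, chr11:82101595-82101894, plus strand, RefSeq) are shown for comparison with the promoters further down, with capitals marking the motifs searched: the core GAGGAA of PU.1, a factor that macrophages depend on, and a TATAAA box.
Ccl12: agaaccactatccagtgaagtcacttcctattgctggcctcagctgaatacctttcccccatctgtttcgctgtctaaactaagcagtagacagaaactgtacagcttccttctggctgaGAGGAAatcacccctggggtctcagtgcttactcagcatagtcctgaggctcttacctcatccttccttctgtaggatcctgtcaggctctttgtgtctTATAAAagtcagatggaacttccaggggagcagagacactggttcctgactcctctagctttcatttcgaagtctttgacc
Ccl12 had 400.4, 1300.0, 1028, 594 and 527 normalized counts in BDS 11, 17, 24, 38 and 59, against 686, 1118, 758, 1372 and 842 in CTL 1, 18, 40, 52 and 69. 3 BDS pups (11, 38 and 59) lay below all CTL pups, and BDS 17 and 24 lay within the CTL range. Its log2 fold change was -0.30 ± 0.31 (SE; edgeR adjusted p = 0.522). The raw ratio of Ccl2 to Ccl12 within a lane, which needs no scaling, had a median of 0.0809 in BDS pups (0.0597 to 0.111) and of 0.0387 in CTL pups (0.0219 to 0.0967). The CTL minimum came from CTL 1, where raw Ccl2 was 12 against a limit of 26.0. The CTL maximum came from CTL 52, where it was 26 against 24.4. Ccl2 carries background counts, whose part in these ratios was not tested.

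Ccl3 (MIP-1 alpha) and Ccl4 (MIP-1 beta) attract monocytes and T cells, and both are made quickly by activated macrophages. They are next to each other on chromosome 11 and their annotated extents in RefSeq overlap, so that counts of the 2 genes may not be fully separate; probe positions were not used here. The RefSeq window around the Ccl3 start (GRCm38.p6, chr11:83649329-83649628, minus strand) is shown because Ccl3 had the lowest fold change of the members, with capitals at its single match, a PU.1 core on the opposite strand.
Ccl3: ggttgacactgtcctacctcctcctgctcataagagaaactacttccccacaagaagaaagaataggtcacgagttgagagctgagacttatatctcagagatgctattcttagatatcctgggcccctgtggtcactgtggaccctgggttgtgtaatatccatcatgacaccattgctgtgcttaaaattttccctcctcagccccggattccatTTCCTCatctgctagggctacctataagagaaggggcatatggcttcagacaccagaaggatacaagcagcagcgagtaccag
Ccl3 had 223, 440.2, 569, 977 and 436 normalized counts in BDS 11, 17, 24, 38 and 59, against 265, 939, 1358, 989 and 923 in CTL 1, 18, 40, 52 and 69. 4 of 5 BDS pups were below 4 of 5 CTL pups, with BDS 38 at the CTL level and CTL 1 at the BDS level. Its log2 fold change was -0.76 ± 0.40 (SE; edgeR adjusted p = 0.213).

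Ccl4 had 64.1, 82.7, 108.7, 140.4 and 59.6 normalized counts in BDS 11, 17, 24, 38 and 59, against 87.4, 172.9, 188.1, 127.5 and 114.1 in CTL 1, 18, 40, 52 and 69. BDS 11, 17 and 59 were below every CTL pup, and CTL 18 and 40 above every BDS pup. Raw Ccl4 in CTL 52 was 25 counts, close to the lane's limit of 24.4. The log2 fold change was -0.61 ± 0.29 (SE; edgeR adjusted p = 0.182). When lane depth entered the fit as a covariate, it was -0.90 ± 0.31 for Ccl4 (edgeR adjusted p = 0.369) and -1.02 ± 0.48 for Ccl3 (edgeR adjusted p = 0.369), against a median of 0.15 over all genes in that fit. The authors' deposited table lists a fold of 0.58 with an unadjusted p of 0.0224 for Ccl4, and a fold of 0.52 with 0.0582 for Ccl3.

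Ccl3 and Ccl4 varied together across pups. Over the 10 pups Pearson's r between log2 values of Ccl3 and Ccl4 was 0.86 and Spearman's rho 0.89 (permutation p = 0.00148 and 0.00102; adjusted over 21 pairs of members 0.0311 and 0.0214). It was 0.90 without the 2 pups farthest from the median of Ccl3 and 0.83 after the group means were subtracted; 5 pups per group are too few for a value within each group. No other pair passed, and Ccl2 with Ccl12 gave r = 0.63 and rho = 0.64 (permutation p = 0.0497 and 0.0554; adjusted 0.513 and 0.581; r = 0.61 without the 2 pups farthest from the median of Ccl2). The raw ratio of Ccl3 to Ccl4 had a median of 5.32 in BDS pups (3.47 to 7.32) and 7.22 in CTL pups (3.03 to 8.10), so the ratios overlapped. All pairs share the lanes' housekeeping scaling.

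Among all 283 tested genes, those most like Ccl3 by Pearson's r over the 10 pups were Ccl4, Nfkbiz (0.83), a nuclear regulator of NF-kB, and Ptpn2 (0.79), a phosphatase of cytokine signalling. For Ccl4 they were Ccl3, Nfkbiz (0.74) and Ptpn2 (0.62). Nfkbiz had 779, 2074, 2065, 2316 and 1638 normalized counts in BDS 11, 17, 24, 38 and 59, against 966, 3268, 2993, 1453 and 2262 in CTL 1, 18, 40, 52 and 69. Like Ccl3 it was lowest in BDS 11 and CTL 1, and its log2 fold change was -0.30 ± 0.33 (SE; edgeR adjusted p = 0.560). With lane depth in the fit Nfkbiz was at -0.80 ± 0.35 (edgeR unadjusted p = 0.0406, adjusted p = 0.369).

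**Figure D3:**
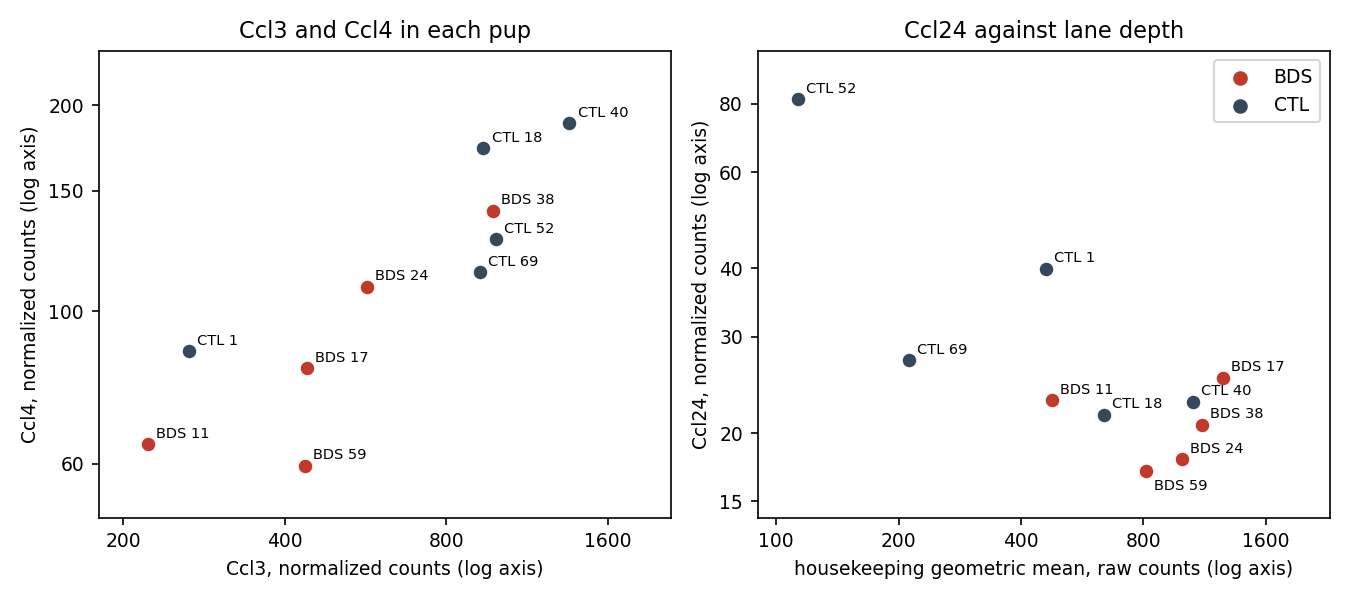
Left, Ccl4 against Ccl3 in each pup (normalized counts, log axes), where the points run along 1 diagonal with BDS 11 and BDS 59 at the low end of Ccl4 and CTL 40 at the top. Right, Ccl24 (normalized counts, log axis) against the lane's housekeeping geometric mean (raw counts, log axis), where CTL 52, the shallowest lane, has the highest value (81.6); BDS pups are red and CTL pups dark blue.

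Ccl6 (C10), a mouse CC chemokine of the macrophage lineage, was among the members with the smallest differences. It had 60.5, 29.9, 42.2, 68.9 and 51.8 normalized counts in BDS 11, 17, 24, 38 and 59, against 48.7, 38.7, 69.0, 96.9 and 40.7 in CTL 1, 18, 40, 52 and 69. The groups overlapped widely, and the highest value, in CTL 52, came from 19 raw counts, below the lane's limit. The log2 fold change was -0.17 ± 0.32 (SE; edgeR adjusted p = 0.734), 0.0018 without CTL 52, and 0.13 ± 0.35 after subtraction of the negative-probe mean.

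Ccl24 (eotaxin-2) attracts eosinophils through CCR3 and is a product of macrophages exposed to interleukin-4. It had 23.0, 25.3, 17.9, 20.7 and 17.0 normalized counts in BDS 11, 17, 24, 38 and 59, against 40.0, 21.6, 22.8, 81.6 and 27.2 in CTL 1, 18, 40, 52 and 69. All BDS pups were below the CTL mean, which CTL 52 raised, but BDS 11 and 17 overlapped with CTL 18 and 40. The raw counts exceeded the limit in 4 BDS lanes and 2 CTL lanes, and not in CTL 52 (16 counts). The log2 fold change was -0.74 ± 0.36 (SE; edgeR adjusted p = 0.184), but -0.40 without CTL 52, -0.36 ± 0.41 with the negative-probe mean subtracted and -0.21 ± 0.32 once lane depth was a covariate. The log2 value of Ccl24 and the log2 housekeeping signal of the lane had r = -0.79 over the 10 pups, and the genes most like it, Irgm1 (0.93), Ets1 (0.87) and Tap1 (0.86), had r = -0.86, -0.92 and -0.92 with that signal. Without CTL 52 the likeness to Ccl24 was 0.81 for Irgm1, 0.59 for Ets1 and 0.48 for Tap1.

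Cxcl10 (IP-10) is induced by interferons and attracts activated T cells and NK cells through CXCR3. Its annotated extent overlaps that of Art3, and whether its probe lies in the shared stretch was not examined, as for Ccl3 and Ccl4. Its RefSeq window (GRCm38.p6, chr5:92348840-92349139, minus strand) is shown because Cxcl10 was the member with the largest fold change; capitals mark, in order, an interferon-stimulated response element spelled here as a pair of GAAA with any 2 bases between them, 2 matches to an NF-kB motif spelled as GGG, any 3 bases, then TTCC, and an AP-1 motif TGANTCA.
Cxcl10: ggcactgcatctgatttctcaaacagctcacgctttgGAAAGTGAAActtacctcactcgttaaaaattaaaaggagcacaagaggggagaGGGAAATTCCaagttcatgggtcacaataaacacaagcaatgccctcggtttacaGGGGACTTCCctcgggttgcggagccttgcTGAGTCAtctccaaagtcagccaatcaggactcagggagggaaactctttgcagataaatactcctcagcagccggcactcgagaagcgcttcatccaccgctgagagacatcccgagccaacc
The matches begin 213, 159, 104 and 74 bases before the start. Over 32544 distinct promoter windows of that length in the same table, searched on both strands, 3.45% held the interferon-stimulated motif, 5.56% the NF-kB motif, 7.79% TGANTCA, 13.6% TATAAA and 28.1% GAGGAA. Of the 4 members in the table, the windows of Ccl12, Ccl3 and Ccl6 held none of the first 3 motifs, and Ccl6 none of the 5. A match is a description of letters and not of a site in use.

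Cxcl10 had 48.4, 120.4, 97.1, 24.3 and 24.8 normalized counts in BDS 11, 17, 24, 38 and 59, against 24.99, 24.3, 25.01, 35.7 and 46.2 in CTL 1, 18, 40, 52 and 69. BDS 11, 17 and 24 were above every CTL pup, although BDS 11 only slightly, and BDS 38 and 59 were within the lowest CTL values. Raw counts were 40, 262, 168, 47 and 35 in these BDS lanes, all above the limit, against 20, 27, 46, 7 and 17 in the CTL lanes, where CTL 1 and CTL 52 did not reach it. The log2 fold change was 1.09 ± 0.46 (SE; edgeR unadjusted p = 0.0314, adjusted p = 0.152). It was 1.15 ± 0.58 with lane depth as a covariate (edgeR unadjusted p = 0.0691), 1.72 ± 0.58 with the negative-probe mean subtracted (edgeR adjusted p = 0.105) and 0.71 without BDS 17. The unadjusted p lay above 0.05 without BDS 17 or 24 and without CTL 1, 18 or 40, and without Sdha in the scaling (0.91, edgeR unadjusted p = 0.0726). With limma Cxcl10 was at 0.74 with a pseudocount of 1, at 0.55 with a pseudocount of 20 and at 0.56 on the deposited scores (limma unadjusted p = 0.105, 0.0939 and 0.227). The authors' deposited table lists a fold of 1.75 with an unadjusted p of 0.2144 for Cxcl10. It lists folds of 0.46 for Ccl24, 0.69 for Ccl12, 0.75 for Ccl6 and 0.89 for Ccl2, with unadjusted p of 0.1353, 0.2037, 0.3116 and 0.8027.

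The other ligands of CXCR3 on the panel, Cxcl9 and Cxcl11, exceeded the limit used here in 1 pup. The authors' deposited table lists each above background in 20% of samples. In BDS 17, where Cxcl10 was highest, raw Cxcl11 was 92 and raw Cxcl9 was 48 against a limit of 16.7. In the other BDS lanes raw Cxcl11 was 9 to 12 and raw Cxcl9 was 7 to 10, and in CTL lanes they were 3 to 19 and 1 to 8, all below the limit. The high Cxcl10 of BDS 24 came without them. BDS 17 was also the deepest lane, and it held 5 of the 6 ligands that exceeded the limit in 1 lane only, among them Ccl11, Xcl1 and Ppbp at 1.08 to 1.62 times the limit; the part of depth in these counts was not tested. Scaled to housekeeping signal, Cxcl11 was 42.3 and Cxcl9 was 22.1 in BDS 17, and the highest CTL values were 25.5 and 15.3, both from CTL 52.

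**Figure D4:**
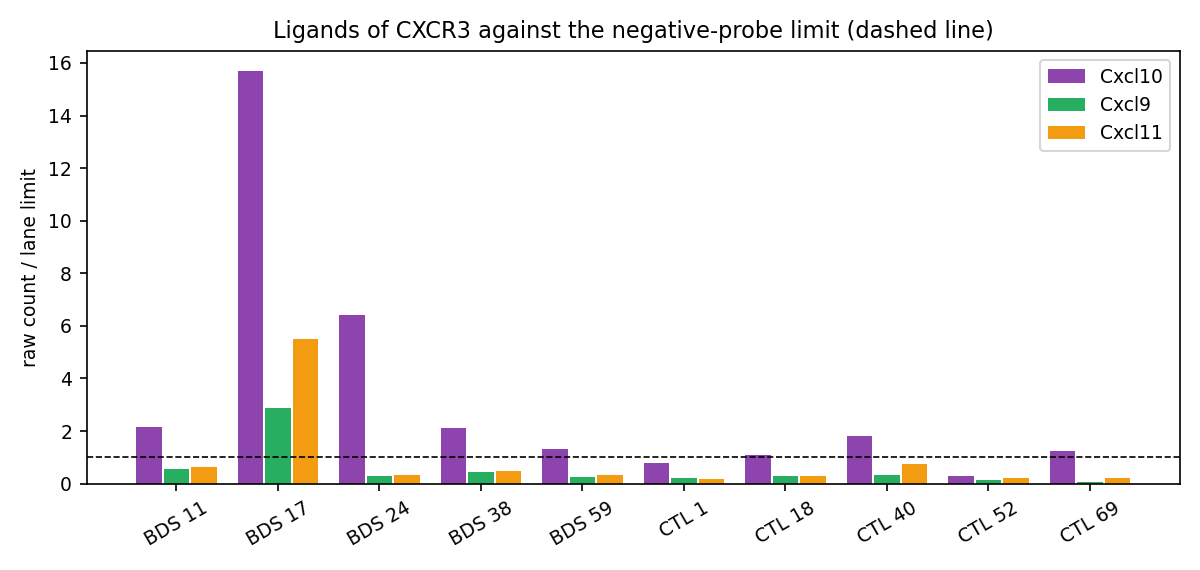
Raw counts of Cxcl10, Cxcl9 and Cxcl11 divided by the lane's negative-probe limit (vertical axis, bars from 0; dashed line at 1) in the 5 BDS and 5 CTL pups. Cxcl10 reaches 15.7 times the limit in BDS 17 and 6.43 times in BDS 24, and Cxcl9 and Cxcl11 pass the line in BDS 17 and in none of the other 9 pups.

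Within a lane, the raw ratio of Cxcl10 to Ccl4 had a median of 0.755 in BDS pups (0.173 to 1.46) and 0.28 in CTL pups (0.133 to 0.405). BDS 11, 17 and 24 were above every CTL pup, BDS 59 (0.417) was level with CTL 69 (0.405) to within 1 count, and BDS 38 was inside the CTL range. For Cxcl10 over Ccl3 the medians were 0.171 (0.0249 to 0.273) in BDS pups and 0.0361 (0.0184 to 0.0943) in CTL pups, with 3 BDS pups above every CTL pup. These ratios do not depend on the scaling, though both genes carry background counts, and they set a member with a higher BDS mean over members with lower ones, chosen with those values known, so they are a description.

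The tested genes most like Cxcl10 over the 10 pups were Irf7 (r = 0.83), a transcription factor of the interferon response, Cd74 (0.72), the invariant chain of MHC class II, and Irf1 (0.71), another interferon-induced factor. Irf7 had 56.9, 93.7, 68.2, 38.8 and 37.6 normalized counts in BDS 11, 17, 24, 38 and 59, and 44.97, 54.0, 50.01, 35.7 and 51.6 in CTL 1, 18, 40, 52 and 69. Its order in BDS pups put 17, 24 and 11 first, as for Cxcl10. For Ccl2 the nearest genes were Bid (0.94), Tnfrsf14 (0.93) and Il18 (0.92), for Ccl12 Tnfrsf4 (0.80), Mx1 (0.70) and Adal (0.69), and for Ccl6 Cd9 (0.70), Clec5a (0.69) and Ets1 (0.66), which were at 0.42, 0.34 and 0.33 without CTL 52. These r values are the highest of 282 per member and are given as a description.

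Receptors for these ligands were measured in the same lanes. Of 10 listed receptors 7 were on the panel and 2 were tested. Ccr2, the receptor of Ccl2 and Ccl12, averaged 112.9 ± 19.1 in BDS pups and 75.1 ± 15.4 in CTL pups (SD, n = 5 each), with a log2 change of 0.59 ± 0.23 (SE; edgeR adjusted p = 0.137). Cxcr3 and Ccr3, which bind Cxcl10 and Ccl24, exceeded the limit in 1 and 2 lanes and were not tested.

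Genes of inflammatory, interferon and interleukin routes were counted by list. The lists hold receptors, kinases and factors that can act upstream of chemokines, but also products and targets of these routes. No gene of any list passed an adjusted p of 0.05, so counts at an unadjusted p under 0.05 are given, beside 19.4% of all tested genes higher and 8.83% lower in BDS pups. That balance depended on the scaling, since 55 genes were higher and 25 lower in the reported fit but 36 higher and 39 lower under TMM. With lane depth as a covariate 26 were higher and 10 lower. Of 16 genes of the NF-kB and toll-like receptor route 6 were higher and 0 lower: Tbk1 (0.68 ± 0.19), Chuk (0.68 ± 0.21), Irak4 (0.58 ± 0.20), Tlr4 (0.47 ± 0.19), Ikbkg (0.58 ± 0.25) and Irak1 (0.47 ± 0.21), of which Tlr4 is the lipopolysaccharide receptor, Ikbkg a regulatory subunit of the NF-kB-activating kinase complex, and the others kinases. The list median was 0.31, with 12 genes above 0 and 4 below: Relb (-0.98), Tlr2 (-0.76), Myd88 (-0.54) and Rela (-0.09). In the fit with lane depth these 4 were at 0.51, 0.53, 0.22 and -0.08. With lane depth as a covariate 3 of the 16 were higher, against 26 of all 283: Tbk1 (0.56), Chuk (0.53) and Ikbkb (0.70), a kinase that was not among the 6. Irak4 (0.30), Tlr4 (0.38), Ikbkg (0.45) and Irak1 (0.35) did not pass in that fit. Without BDS 17, and likewise under TMM, 4 of the 16 were higher, against 32 and 36 of all 283.

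Of 20 tested interferon genes 2 were higher and 1 lower, with a median of 0.30. The RNA sensor Ifih1 was at 0.67 ± 0.28, and the peptide transporter gene Tap1, above the limit in 4 lanes only, was at -1.80 ± 0.59. Without CTL 52 the counts of this list were 6 higher and 3 lower, beside 70 and 22 of all 283 tested genes. Without BDS 17 they were 1 and 1, beside 32 and 13 of all 283, with a list median of 0.12. With lane depth in the fit neither gene passed (Ifih1 at 0.59, unadjusted p = 0.102; Tap1 at -0.31, unadjusted p = 0.419, edgeR), and the 1 higher and 1 lower gene were Ifngr2 (0.42) and Ifnar2 (-0.45), both subunits of interferon receptors.

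Of 9 tested inflammatory and immediate response genes, many of which share inducers with Ccl3 and Ccl4, 2 were higher and 0 lower, with a median of -0.04. Cd83 was at 0.47 ± 0.17 and the feedback inhibitor Socs3 at 0.94 ± 0.37, while Tnf was at -0.48 ± 0.31 and Il6 exceeded the limit in 1 lane. With lane depth in the fit this list had 1 higher gene, Cd83 (0.40), and 1 lower, Nfkbiz, while Socs3 did not pass (0.80, edgeR unadjusted p = 0.101), and TMM also gave 1 and 1. Of 8 tested genes of the interleukin-4 and interleukin-10 route 2 were higher, Il10rb (0.81 ± 0.26) and Il4ra (0.83 ± 0.36, and 0.50 without BDS 17), and 1 lower, Il13 (-1.16 ± 0.52), with a median of 0.07 and no call with lane depth held. Il13, a cytokine that induces Ccl24, averaged 14.5 ± 8.50 normalized counts in BDS pups and 35.7 ± 23.8 in CTL pups (SD, n = 5 each), and was at -0.02 with lane depth as a covariate. It was above the limit in 4 lanes only, with raw counts of 17 to 24 in BDS lanes and 13 to 28 in CTL lanes. The part of the scaling in its group means was not tested.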

How the data were processed

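Per the labels' protocols, cDNA was amplified before hybridization. The deposited raw table holds counts per probe, not normalized. A table by the authors holds normalized counts rounded to whole numbers, treated as a score, with the percent of samples above background, a fold (ratio of group means) and an unadjusted p-value, per the file headers and the series' design text; folds and p-values were copied. After PCR, counts do not stand for independent molecules.

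The filter of 4 of 10 lanes above the limit left 283 of 545 genes. On their raw counts edgeR 4.0.16 (R 4.3.3) ran its two-sided quasi-likelihood test with offsets from the 6 housekeeping genes that the series' design text names (it counts them as 5), and p-values were adjusted by Benjamini-Hochberg over those 283; an SE is the size of the log2 change divided by the root of its F. DESeq2 1.42.0 and limma 3.58.1 (log2 scale, pseudocount 1) were alternatives. Tested on simulated data for this comparison (545 genes, 10 runs), edgeR recovered, of the changed genes, 19.9% at a fold of 1.5, 50.5% at 2 and 96.1% at 4. Each run changed 200 of the 545 genes, used no filter and fitted with the same lane factors that generated the counts. The real fit had 283 filtered genes and factors estimated from housekeeping genes, so these shares cannot be taken as its power. Correlations used log2 normalized counts and 100000 permutations. Each pup had its own litter and is 1 replicate.

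The members, the lists and the alternatives were chosen with earlier results of these data known. Named genes were the members, up to 6 genes per list with an unadjusted p under 0.05, the 3 genes most like each member, and housekeeping and marker genes. Others were singled out after their values were seen, as were the promoter motifs. These were Nfkbiz and Irf7 per pup, Tnf, Il6, Ikbkb, Relb, Tlr2, Myd88, Rela, Ifngr2, Ifnar2, and ligands and receptors near the limit. Some genes of the lists are not reported here. All 7 probe accessions matched RefSeq by symbol, and promoters are RefSeq's (GRCm38.p6).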

Additional observations from a re-analysis of the deposited data

Results flagged for a closer look

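Ccl3 in CTL 1 (265 normalized counts) stood apart from the other CTL pups, with a gap to the nearest of 0.764 of the group's range on the log2 scale, where 0.710 is the 95% critical value for 5 samples. It was the only such value among 14 groups (7 members, BDS and CTL each), and chance gives about 1 in 20. Without CTL 1 the log2 fold change of Ccl3 was -0.99 in place of -0.76 (edgeR adjusted p = 0.155).

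Among chemokine genes left out of the test, 2 exceeded both the lane's limit and every CTL pup after scaling: Cxcl11 with 92 raw counts and Cxcl9 with 48, both in BDS 17.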

How the results depend on the processing

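No member passed an adjusted p of 0.05 under any alternative but the scaling to positive controls alone, which ignores the amount of RNA in a lane and put the median of all tested genes at 1.35. There 2 members passed, Ccl2 at 2.12 and Cxcl10 at 2.60, and the others turned positive: Ccl3 at 0.37, Ccl4 at 0.49, Ccl6 at 0.96, Ccl12 at 1.22 and Ccl24 at 0.81, so these 5 still lay below the panel median. List medians there were 1.93 for receptors, 1.41 for the NF-kB route, 1.29 for inflammatory genes, 1.549 for the interferon route and 1.504 for the interleukin-4 route. Under every other scaling Cxcl10 was above and Ccl3, Ccl4 and Ccl24 were below both 0 and the panel median, which was -0.09 without Sdha, -0.05 under median-of-ratios and -0.04 under TMM. Ccl6 turned to 0.13 with background subtracted. Leaving out 1 pup gave -0.019 (without BDS 17) to 0.77 (without CTL 52) for Ccl2, -0.32 to 0.0018 for Ccl6, -1.10 to -0.55 for Ccl3, -0.82 to -0.46 for Ccl4, -0.91 to -0.40 for Ccl24, -0.58 to -0.14 for Ccl12 and 0.71 to 1.29 for Cxcl10; the cause of these shifts was not tested.

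Members at an unadjusted p under 0.05 numbered 1 in the reported fit, 4 with TMM and with median-of-ratios factors, 3 without Sdha, without Oaz1 and without CTL 52 and 69 together, 2 with positive controls, with all 14 housekeeping genes, with DESeq2 and with limma on the deposited scores, and 0 to 3 with 1 pup left out. Over all genes, calls at an adjusted p of 0.05 numbered 0 in the reported fit, 14 with positive controls, 12 without Gapdh, 15 without Polr1b, 25 with DESeq2, and 0 to 48 with 1 pup left out (48 without CTL 40, 19 without BDS 11). Calls at an unadjusted p under 0.05 numbered 80 in the reported fit, 128 with positive controls, 139 with no filter on low counts (panel median -0.24), 36 with lane depth as a covariate, and 45 to 108 with 1 pup left out. List medians under alternatives were added after seeing the data. No paired analysis was possible because BDS and CTL pups share no pup number. Depth limits Ccl24, Cxcl10, Ccl2 and Ccl6, whose counts in some CTL lanes lay at or under the limit. Ccl4 in CTL 52 lay just above it (25 raw counts against 24.4).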
